A study of Mus musculus with 55 samples.

Results

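Imprinted genes with roles in growth were followed through an experiment on the ADD domains of DNMT3A and DNMT3L. The 6 genes were chosen by name: the insulin-like growth factor receptor gene Igf2r and its antisense partner Airn, the adaptor gene Grb10, the zinc finger gene Plagl1, and the neighbours Mest and Copg2. All 6 were present among the 51734 genes of the oocyte tables and the 24421 genes of the embryo tables. RNA was sequenced from single fully grown oocytes (FGOs) of 4 genotypes, from single MII oocytes, which have completed the first meiotic division, and from whole embryos.

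The FGO groups held 18 wild-type libraries, 8 libraries with Dnmt3a+/+ and homozygous Dnmt3L D124A (Dnmt3L ADD/ADD below), 8 libraries with Dnmt3aADA/ADA and Dnmt3L+/+ (Dnmt3a ADD/ADD below), and 8 libraries homozygous for both alleles (double mutant below). Each allele replaces aspartic acid by alanine in the ADD domain, which reads histone H3 unmethylated at lysine 4. Mutant females were mainly of C57BL/6J descent, per the study's methods. Ovaries of females aged 10 to 12 weeks were punctured with needles to release FGOs, which were then stripped of cumulus cells. The 10 MII oocytes were wild type. For MII oocytes the study's methods describe collection from oviducts of females of 11 to 18 weeks, injected beforehand with inhibin antiserum and chorionic gonadotropin. The 3 embryos came from double mutant oocytes of females of 11 to 18 weeks, fertilised in vitro with sperm of the JF1 strain and carried by ICR foster females, so that the maternal allele carried C57BL/6J and the paternal allele JF1 sequence. The labels give the embryos as day 9 and the study's methods as day 9.5. No source names the females behind single oocytes, so p-values measure the spread between these libraries only.

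Genomic imprinting is the expression of a gene from 1 parental allele, set by DNA methylation laid down in the germ line at an imprinting control region. At the loci of these genes the control region gains methylation in the growing oocyte, which needs DNMT3A with its cofactor DNMT3L, and remains unmethylated in sperm. As background, Mest and Plagl1 are normally read from the paternal allele, Airn from the paternal allele and Igf2r from the maternal allele in the embryo proper, and Grb10 mainly from the maternal allele outside neurons. Igf2r carries IGF2 and mannose 6-phosphate-tagged enzymes to the lysosome, Grb10 restrains signalling from the insulin and IGF1 receptors, Plagl1 is a transcription factor, Mest encodes a hydrolase of the endoplasmic reticulum, and Copg2 encodes a gamma subunit of the COPI vesicle coat.

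In the mm10 build, Mest lies on the plus strand at chr6:30723547-30748465 and Copg2 on the minus strand at chr6:30747554-30896794, so that their 3' ends overlap. Igf2r lies on the minus strand at chr17:12682406-12769664 and Airn on the plus strand at chr17:12741311-12860122, with its start inside Igf2r. Grb10 lies on the minus strand at chr11:11930508-12038683 and Plagl1 on the plus strand at chr10:13060504-13131694. Exons of Mest and Copg2 share 912 bp on opposite strands, and exons of Igf2r and Airn share 0 bp. The oocyte libraries do not mark the strand, so reads in the shared bases of Mest and Copg2, and intronic reads of Igf2r that fall on Airn exons, cannot be told apart there.

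The promoters of Mest and Plagl1 are shown as examples of genes with a start within a region that is methylated in the oocyte. Other genes of the set may have such a start too, and the next paragraph gives counts for their windows. Embryo counts below are per gene and are not assigned to these promoters. Each is the 250 bases before a RefSeq start (GRCm38.p6), for Mest at chr6:30737800-30738049 and for Plagl1 at chr10:13090582-13090831, both on the plus strand. Capitals mark the hexamer TGCCGC, the core of the sequence recognised by ZFP57, or GCGGCA, the same hexamer on the other strand.
Mest: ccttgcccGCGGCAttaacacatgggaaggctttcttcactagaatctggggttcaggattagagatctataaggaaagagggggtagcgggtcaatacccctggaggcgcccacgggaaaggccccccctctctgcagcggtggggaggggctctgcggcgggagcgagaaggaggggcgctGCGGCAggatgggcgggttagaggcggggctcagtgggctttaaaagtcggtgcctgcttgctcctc
Plagl1: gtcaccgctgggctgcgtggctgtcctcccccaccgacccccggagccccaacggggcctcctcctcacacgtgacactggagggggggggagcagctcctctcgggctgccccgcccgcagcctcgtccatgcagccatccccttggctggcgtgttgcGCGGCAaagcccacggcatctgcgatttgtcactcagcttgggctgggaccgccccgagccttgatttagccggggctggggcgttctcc

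This Mest window held 2 copies of the hexamer and 14 CpG dinucleotides, while the window of another Mest start, at chr6:30733256-30733505, held 0 copies and 7 CpGs, and the Plagl1 window held 1 copy and 19 CpGs. Of all 32851 RefSeq windows of the same 250 bases, 8.68% held the hexamer on either strand, and the median window held 6 CpGs. The Copg2 window held 1 copy, and the windows of Igf2r, Airn and the listed Grb10 starts held none. CpG counts were 27 before Igf2r, 2 before Airn, and 40 and 8 before the Grb10 starts. A match of letters is a description of the window and not a binding site.

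Oocyte libraries held 7832458 to 23739871 counted reads. All 10 oocyte markers, such as Zp3 and Gdf9, had counts in every library, and their summed level was 6991 to 11067 CPM (counts scaled to a library of 1000000 reads) in wild-type FGOs and 10050 to 11364 CPM in double mutant FGOs. The 13 markers of granulosa and theca cells summed to 123.6 to 324 CPM in wild-type FGOs, 115 to 172 CPM in Dnmt3L ADD/ADD FGOs, 114 to 212 CPM in Dnmt3a ADD/ADD FGOs and 111 to 142 CPM in double mutant FGOs. In MII oocytes they summed to 106 to 136 CPM with Amh at 0 throughout. Single markers were also compared with wild-type FGOs, at adjusted p under 0.05 with a fold change over 2 (edgeR's quasi-likelihood test). By that rule 10 of 13 were lower in double mutant FGOs (list median -2.07 on the log2 scale) and 10 of 13 in MII oocytes (-3.38). In Dnmt3a ADD/ADD FGOs 6 of 13 were lower (-0.92), and 3 of 13 were lower with Dnmt3L ADD/ADD (-0.72). No marker of this list was higher in any of these groups at adjusted p under 0.05. The 7 stroma markers summed to 4.11 to 28.2 CPM in wild-type FGOs, 3.17 to 11.3 CPM in Dnmt3L ADD/ADD FGOs and 2.47 to 67.8 CPM in Dnmt3a ADD/ADD FGOs. They summed to 0.834 to 2.99 CPM in double mutant FGOs, where Lum and Acta2 were at 0. Libraries also differed in their share of mapped reads. It was under 80% in 8 wild-type (replicates 1 to 8), 3 Dnmt3a ADD/ADD and all 8 double mutant FGOs and in 3 MII oocytes. It was at least 80% in the other libraries. The part of any of these in the differences below was not tested except where a value within a class of mapped reads is given.

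All 6 genes had counts in every wild-type FGO, and their levels spanned a wide range. Counts of Airn cannot be told apart from intronic reads of Igf2r, so transcription of Airn in the oocyte is not shown. Per kilobase of gene length (RPKM), Igf2r stood at 24.7 ± 2.98 (SD, n = 18), Mest at 23.8 ± 2.64, Copg2 at 13.8 ± 1.38, Grb10 at 7.60 ± 1.03, Plagl1 at 3.07 ± 0.861 and Airn at 0.539 ± 0.170. Igf2r was above Mest in only 11 of 18 wild-type FGOs, so this pair did not differ beyond its spread. Every other step of the order held in 18 of 18 libraries. In the mutant FGOs and the MII oocytes Mest stood above Igf2r, in 7 of 8 libraries of each mutant group and in 9 of 10 MII oocytes, and the lower steps were the same as in the wild type in every library.

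**Figure D1:**
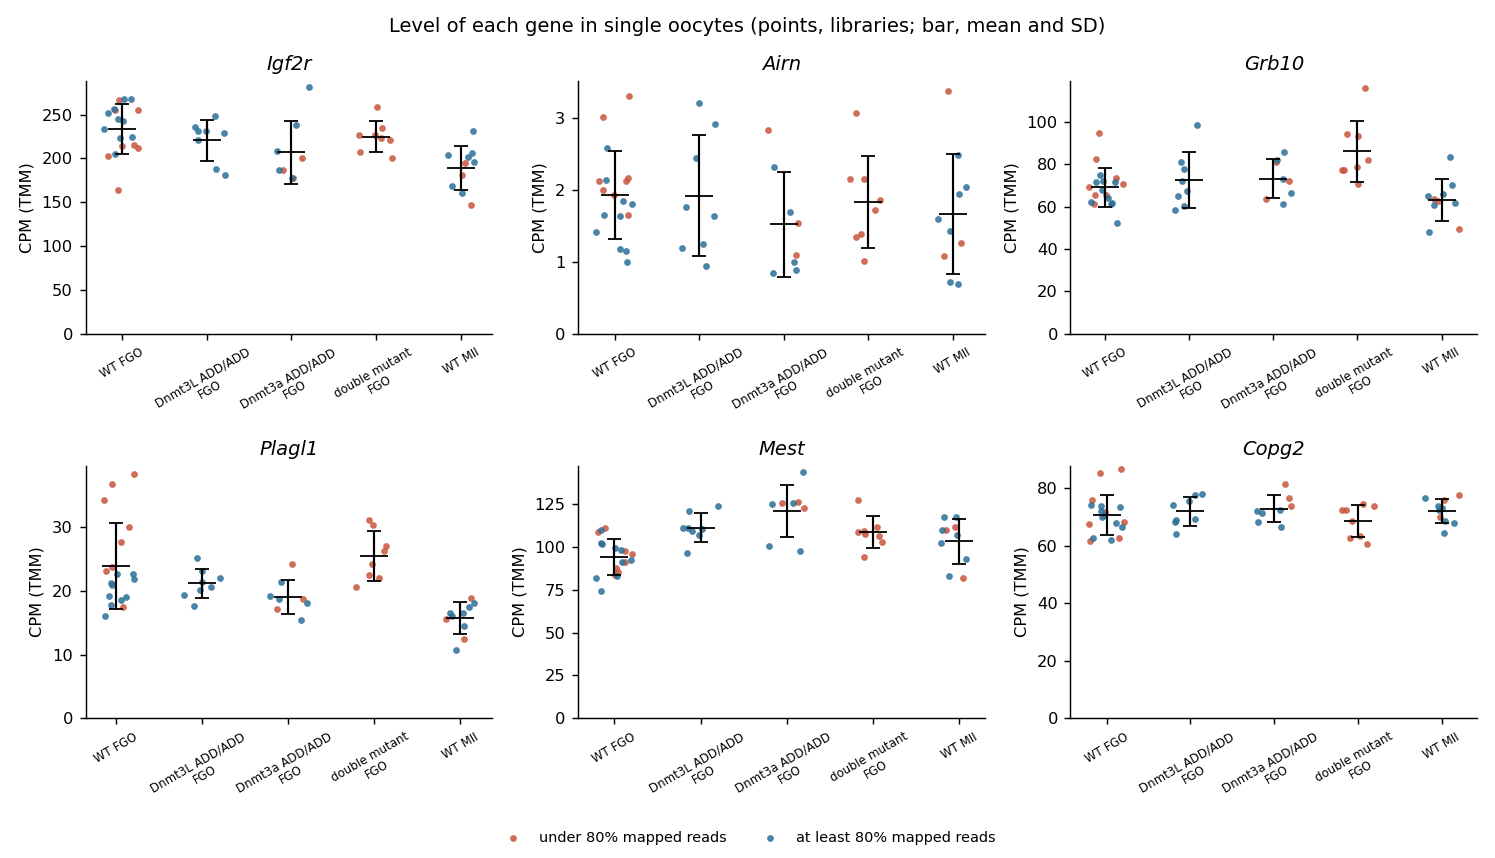
Level of each gene in CPM, scaled by trimmed mean of M-values, in every oocyte library by group, with each group's mean and SD as bars and the class of mapped reads as colour. Mest points of the mutant FGOs lie above the wild-type mean of 94.0 CPM except for 1 double mutant library at 93.9 CPM, and Plagl1 points of the wild type spread from 16.1 to 38.3 CPM.

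The mutant FGOs were compared with wild-type FGOs to ask whether loss of ADD function alters these transcripts in the oocyte itself. The only gene of the 6 that passed the test in all 3 mutant genotypes was Mest, which rose 1.15-fold to 1.28-fold, and no gene changed 2-fold. In edgeR's quasi-likelihood test, 0 of the 6 genes passed adjusted p under 0.05 together with a fold change over 2 in any FGO comparison. Of the 15726 genes tested, that rule called 0.655% for Dnmt3L ADD/ADD. It called 2.05% for Dnmt3a ADD/ADD and 1.65% for the double mutant. DESeq2 and edgeR's exact test called 0 of the 6 as well. At an unadjusted p under 0.05 and any fold change there were 1, 3 and 2 of the 6 genes in these genotypes, in the same order. The share of all genes at this unadjusted rule is not given here or below, so such counts are not read as particular to the 6. At adjusted p under 0.05 with no fold limit, which called 6.13%, 15.7% and 12.2% of all genes (3.07%, 8.06% and 5.51% as higher), the counts were 1, 1 and 2 of 6, with Mest in each and Grb10 in addition in the double mutant.

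Mest was measured at 74.3, 93.8 and 111 CPM as the lowest, median and highest wild-type FGO. Dnmt3L ADD/ADD FGOs held 96.2, 110 and 123.8 CPM, and Dnmt3a ADD/ADD FGOs held 97.4, 125 and 144 CPM. Double mutant FGOs held 93.9, 108 and 127 CPM. Every mutant library lay above the wild-type median, and 3, 6 and 2 of 8 lay above the highest wild-type FGO, while the ranges of all groups overlapped. On the log2 scale Mest rose by 0.24 (SE 0.064, adjusted p = 0.0193) in Dnmt3L ADD/ADD FGOs. It rose by 0.36 (SE 0.063, adjusted p = 0.000116) in Dnmt3a ADD/ADD FGOs, a 1.28-fold difference, and by 0.20 (SE 0.064, adjusted p = 0.0367) in double mutant FGOs. All 3 comparisons share the wild-type libraries.

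The rise in the single mutants was present within a class of mapped reads. Among libraries with at least 80% mapped reads it was 0.25 (adjusted p = 0.0389) in Dnmt3L ADD/ADD and 0.34 (adjusted p = 0.0127) in Dnmt3a ADD/ADD FGOs, by edgeR's quasi-likelihood test. Among libraries under 80% it was 0.39 (adjusted p = 0.0132) in Dnmt3a ADD/ADD FGOs. Leaving out Dnmt3L ADD/ADD replicate 8 gave 0.21 with adjusted p = 0.0538. The Mest value of the double mutant did not keep its call: among libraries under 80%, where all of that group lie, it was 0.17 with adjusted p = 0.293. It also missed 0.05, at 0.0512 to 0.0905, without any one of wild-type replicates 8, 9, 12 and 17 or double mutant replicates 1, 2, 3, 5 and 8. Between mutants, Mest differed by -0.04 (95% interval -0.19 to 0.11) for the double mutant against Dnmt3L ADD/ADD and by -0.17 (-0.31 to -0.02, adjusted p = 0.0887) against Dnmt3a ADD/ADD.

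**Figure D2:**
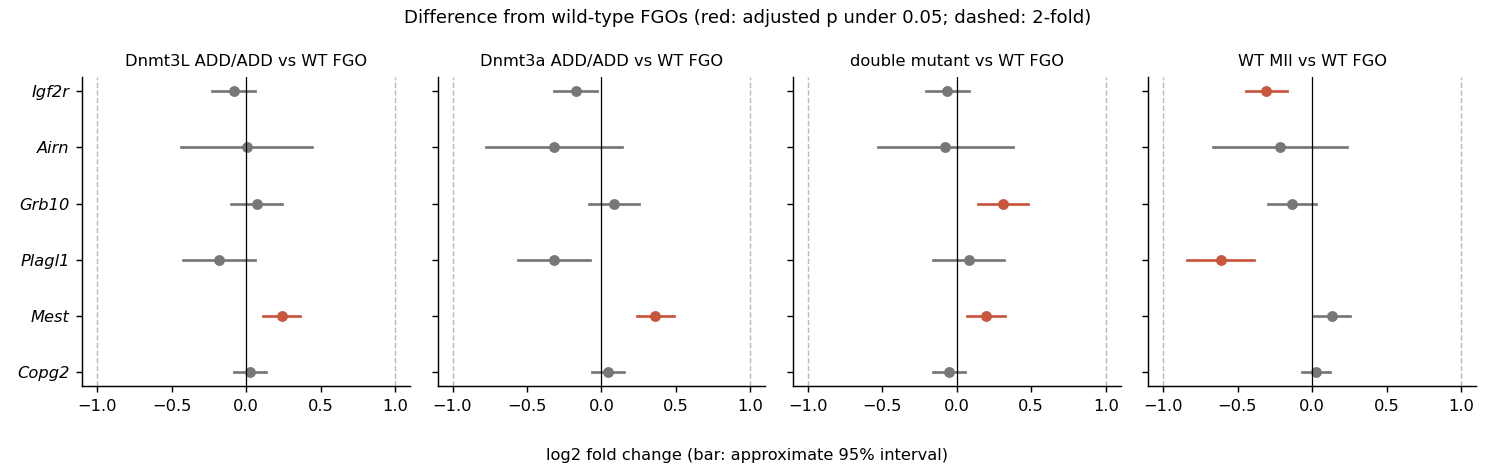
Log2 fold change of each gene against wild-type FGOs, with its approximate 95% interval, in the mutant FGOs and in MII oocytes, red where adjusted p was under 0.05. Mest lies to the right of 0 in every mutant panel, at 0.24, 0.36 and 0.20, and no interval reaches the dashed 2-fold lines.

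Copg2, whose gene overlaps the end of Mest, stayed close to its wild-type level. Its lowest, median and highest values were 61.8, 70.3 and 86.6 CPM in wild-type FGOs, 64.1, 71.8 and 78.1 CPM in Dnmt3L ADD/ADD, 66.7, 72.3 and 81.5 CPM in Dnmt3a ADD/ADD and 60.8, 70.5 and 74.4 CPM in double mutant FGOs. These ranges lay almost on top of one another. The log2 differences from the wild type were 0.03 (95% interval -0.08 to 0.13), 0.04 (-0.06 to 0.15) and -0.05 (-0.16 to 0.05), with adjusted p from 0.548 to 0.809.

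Grb10, the brake on insulin and IGF1 receptor signalling, was higher in double mutant FGOs. Wild-type FGOs held 52.5, 68.6 and 94.9 CPM as the lowest, median and highest value, and double mutant FGOs held 70.7, 80.3 and 116 CPM. All 8 double mutant libraries lay above the wild-type median and 1 above the highest wild-type FGO. Grb10 rose by 0.31 on the log2 scale (SE 0.085, adjusted p = 0.0147). In the single mutants the values were 58.2, 69.8 and 98.5 CPM in Dnmt3L ADD/ADD and 61.5, 72.4 and 85.9 CPM in Dnmt3a ADD/ADD FGOs. Their log2 differences from the wild type were 0.07 (95% interval -0.10 to 0.24) and 0.09 (-0.08 to 0.25). The difference of the double mutant from Dnmt3L ADD/ADD was 0.24 (adjusted p = 0.0728) and from Dnmt3a ADD/ADD 0.23 (adjusted p = 0.0829), so a difference between the mutants was not shown.

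The class of mapped reads moved with the Grb10 value. Among wild-type FGOs, Grb10 averaged 73.0 ± 10.9 CPM (SD, n = 8) in libraries under 80% mapped reads and 65.9 ± 6.87 CPM (n = 10) in the others, and within the class under 80% the double mutant difference was 0.22 with adjusted p = 0.427. Leaving out double mutant replicate 1 gave 0.24 with adjusted p = 0.0532. The summed granulosa and theca markers reached their lowest maximum of the FGO groups here, and 10 of the 13 markers were lower than in the wild type. Their part in the Grb10 difference was not tested.

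Plagl1 was the most variable of the better expressed genes in the wild type, with a coefficient of variation of 28.1% against 9.97% for Copg2. The lowest, median and highest levels were 16.1, 22.2 and 38.3 CPM in wild-type FGOs, 17.7, 21.0 and 25.1 CPM in Dnmt3L ADD/ADD, 15.5, 18.7 and 24.2 CPM in Dnmt3a ADD/ADD and 20.6, 25.2 and 31.1 CPM in double mutant FGOs. Differences from the wild type were -0.18 (95% interval -0.42 to 0.06), -0.32 (-0.56 to -0.08, adjusted p = 0.0671) and 0.08 (-0.16 to 0.32) on the log2 scale. The wild-type FGOs split by class: 28.9 ± 7.29 CPM (SD, n = 8) under 80% mapped reads and 19.996 ± 2.19 CPM (n = 10) at 80% or more.

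The Plagl1 value moved with the wild-type FGOs used, and its sign turned in 2 of the 3 genotypes but not in Dnmt3a ADD/ADD FGOs. Against the wild-type FGOs under 80%, the log2 difference was -0.45 (adjusted p = 0.00995) in Dnmt3L ADD/ADD FGOs. It was -0.60 (adjusted p = 0.000719) in Dnmt3a ADD/ADD FGOs and -0.19 in the double mutant. Against those at 80% or more it was 0.09, -0.06 and 0.35 (adjusted p = 0.00189) in the same order. Between mutants, Plagl1 was higher in the double mutant than in Dnmt3a ADD/ADD FGOs by 0.40 (SE 0.14, adjusted p = 0.0288), where that rule called 30.9% of all genes, and among libraries under 80% the difference was 0.33 with adjusted p = 0.273. Without Dnmt3a ADD/ADD replicate 7 or double mutant replicate 3 or 8, the adjusted p was 0.0529 to 0.0617. The rule with a 2-fold limit called 5.86% of genes in this comparison and 4.03% against Dnmt3L ADD/ADD, and 0 of the 6 genes in either. In the latter, with 1 of 6 at an unadjusted p under 0.05, 0 of 6 passed the adjusted p that 24.2% of genes passed.

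Igf2r levels overlapped across the FGO genotypes. The lowest, median and highest values were 164, 238 and 268 CPM in wild-type FGOs, 181, 230 and 248 CPM in Dnmt3L ADD/ADD, 178, 194 and 281 CPM in Dnmt3a ADD/ADD and 201, 225 and 259 CPM in double mutant FGOs. In each mutant group 7 of 8 libraries lay below the wild-type median. The log2 differences were -0.08 (95% interval -0.23 to 0.06), -0.17 (-0.32 to -0.03, adjusted p = 0.101) and -0.06 (-0.21 to 0.08). The Dnmt3a ADD/ADD value passed without that group's replicate 4, the highest of all, at -0.26 with adjusted p = 0.00973, and without wild-type replicate 8, at -0.20 with adjusted p = 0.0349.

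Airn, the long noncoding RNA that silences Igf2r in cis on the paternal allele of embryonic cells, was near the limit of detection, with 8 to 79 counts per library. It was measured at 0.994, 1.89 and 3.32 CPM in wild-type FGOs as the lowest, median and highest value, and medians were 1.80 CPM in the double mutant, 1.70 CPM in Dnmt3L ADD/ADD and 1.32 CPM in Dnmt3a ADD/ADD FGOs. No group stood apart in the main fit. With replicate number as a block, which used replicates 1 to 8 only, Airn in Dnmt3a ADD/ADD FGOs was -0.69 on the log2 scale (adjusted p = 0.0374, edgeR's quasi-likelihood test). Against the wild-type FGOs under 80% without that block it was -0.57 (adjusted p = 0.119). In the main fit the log2 differences were 0.00 (95% interval -0.44 to 0.44), -0.32 (-0.78 to 0.14) and -0.08 (-0.53 to 0.38) for Dnmt3L ADD/ADD, Dnmt3a ADD/ADD and the double mutant. A difference below about those bounds was not detectable there at this depth.

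Wild-type MII oocytes were set beside wild-type FGOs to see how the transcripts fare after the growth phase. With the hormone injection that the methods describe for MII oocytes, stage, treatment and age of the females cannot be told apart. Igf2r and Plagl1 were lower in MII oocytes, and the other genes were not shown to differ. The rule with a 2-fold limit called 9.20% of the 15784 genes tested by edgeR's quasi-likelihood test. It called 0 of the 6 by that test, DESeq2 and the exact test. At an unadjusted p under 0.05, for which no share of all genes is given, there were 3 of the 6. Adjusted p under 0.05 alone called 39.1% of genes, of which the lower ones were 22.6% of all genes tested, and it called 2 of the 6. In a sample of single cells, fewer transcripts of a gene and a shift in the total RNA to which it is scaled cannot be told apart.

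Plagl1 held 10.8, 16.3 and 18.8 CPM in MII oocytes as the lowest, median and highest value. All 10 lay below the wild-type FGO median and 5 below the lowest wild-type FGO. It fell by 0.61 on the log2 scale (SE 0.11, adjusted p = 2.75e-05), a ratio of 0.654. The size differed with the class of mapped reads, at -0.36 (adjusted p = 0.00850) among libraries at 80% or more and -0.89 (adjusted p = 0.0313) among those under 80%. Igf2r held 147, 195 and 231 CPM, with all 10 below the FGO median and 2 below the lowest FGO, and fell by 0.31 (SE 0.071, adjusted p = 0.000533). Among libraries under 80%, with 3 MII oocytes, the Igf2r value was -0.35 with adjusted p = 0.115.

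The other 4 genes were closer to their FGO levels. Mest stood at 82.0, 108 and 117 CPM in MII oocytes (log2 difference 0.13, 95% interval 0.01 to 0.25, adjusted p = 0.0848). Copg2 stood at 64.5, 72.7 and 77.8 CPM (0.03, -0.07 to 0.12) and Grb10 at 48.1, 63.2 and 83.6 CPM (-0.13, -0.29 to 0.03). Airn stood at 0.700, 1.51 and 3.39 CPM (-0.21, -0.66 to 0.23).

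Genes that share a pathway or an imprinting mechanism with the 6 were counted over lists chosen with earlier results of these data known. Of 42 further genes listed under a control region methylated in the oocyte, 32 could be tested in FGOs. Slc22a2, Slc22a3 and Klf14 of this list lie within 200 kb of the 6 and count among the neighbours below as well. In Dnmt3L ADD/ADD FGOs 0 rose and 2 fell, and in Dnmt3a ADD/ADD FGOs 5 rose and 2 fell at adjusted p under 0.05. In double mutant FGOs 4 rose and 2 fell. All genes passed at 6.13%, 15.7% and 12.2% in these comparisons, so 2, 7 and 6 of 32 are not read as particular to the list. Median log2 differences of the list were 0.03, 0.10 and 0.07, beside -0.03, -0.03 and -0.01 over all genes tested. The largest were in the double mutant: the retrotransposon-derived gene Peg10 rose by 2.02 (SE 0.31), its neighbour Sgce by 1.26 (SE 0.26), and Nap1l5 fell by 3.26 (SE 0.52). These exceed any value among the 6 growth genes, of which the largest in any FGO comparison was 0.40.

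Receptors, ligand-binding proteins and effectors of IGF and insulin signalling gave 32 of 34 genes for testing. Of these, 2 rose and 0 fell in Dnmt3L ADD/ADD, 4 rose and 2 fell in Dnmt3a ADD/ADD, and 2 rose and 2 fell in double mutant FGOs. The kinase genes Akt1 and Akt2 rose in both single mutants, Akt1 by 0.33 (SE 0.059) and 0.23 (SE 0.059) and Akt2 by 0.26 (SE 0.064) and 0.31 (SE 0.064), while Akt2 fell by 0.19 (SE 0.065) in the double mutant. Grb14, a relative of Grb10, fell by 2.47 (SE 0.63) in double mutant FGOs from a wild-type mean of 3.57 CPM, and the exchange factor gene Sos1 rose by 0.63 (SE 0.18). The totals of 2, 6 and 4 of 32 lay near the 6.13%, 15.7% and 12.2% of all genes that passed, and list medians were -0.06, 0.05 and 0.01.

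Around Igf2r, 8 of 10 genes of mannose 6-phosphate sorting were tested. Those of the mutants that differed from the wild type at adjusted p under 0.05 encode lysosomal enzymes. Cathepsin D (Ctsd) fell by 0.57 (SE 0.17) in Dnmt3L ADD/ADD, and Ctsb, Ctsd and Ctsl fell by 0.53 (SE 0.14), 0.55 (SE 0.17) and 1.14 (SE 0.22) in Dnmt3a ADD/ADD FGOs. Hexa fell by 1.15 (SE 0.36) in double mutant FGOs, and no gene of the list rose. These 1, 3 and 1 of 8 genes stand beside 6.13%, 15.7% and 12.2% of all genes that passed, and are not read as particular to the list. Around Copg2, all 9 COPI coat genes were tested. Copg1, which encodes the other gamma subunit, rose by 0.19 (SE 0.046) and 0.17 (SE 0.046) in the single mutants, and Copb2 by 0.16 (SE 0.051) and 0.18 (SE 0.050), while 0 of 9 changed in the double mutant. The counts of 2, 2 and 0 of 9 stand beside the same shares of all genes. In the double mutant Plagl2, a relative of Plagl1, rose by 0.32 (SE 0.10), and in MII oocytes Plag1 rose by 0.14 (SE 0.053).

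The chromosomal neighbourhood was counted as the 58 further genes within 200 kb of the 6, of which 24 were tested in FGOs. In Dnmt3L ADD/ADD FGOs 0 rose and 1 fell, in Dnmt3a ADD/ADD 1 rose and 1 fell, and in double mutant FGOs 2 rose and 1 fell. These 1, 2 and 3 of 24 stand beside 6.13%, 15.7% and 12.2% of all genes. Tcp1, a chaperonin gene near Igf2r, fell by 0.14 (SE 0.042) and 0.17 (SE 0.042) in the single mutants, and Fignl1 near Grb10 rose by 0.18 (SE 0.052) in Dnmt3a ADD/ADD. In the double mutant Cep41 and Cpa1, which flank Mest, rose by 0.25 (SE 0.082) and 0.22 (SE 0.069), and Utrn near Plagl1 fell by 0.56 (SE 0.12). None of these reached 2-fold. In MII oocytes 3 of 23 tested neighbours rose and 8 fell. Of the 32 imprinted genes of the list above 7 rose and 8 fell, and of the 32 IGF and insulin genes 8 and 11. In that comparison 39.1% of all genes passed and 22.6% fell.

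Across the 42 FGO libraries the genes were ranked by likeness to each of the 6, as Pearson's r of log2 CPM with 13394 other genes. The points share libraries, depth and genotype, so r is a description. Igf2r was most like Aplp2 (0.84), Lcp1 (0.83) and Col6a4 (0.81), and Plagl1 most like Jkamp (0.84), Tra2a (0.83) and the small RNA gene Scarna2 (0.80). Mest was most like the zinc transporter gene Slc30a5 (0.81), Ubac2 (0.76) and Znrf2 (0.72), and Copg2 like Shoc2, Papola and Tmem209 (0.81 each). Grb10 was most like Mtpn (0.69), Pex13 (0.67) and Thap4 (0.65). For Airn, at its low counts, Tasp1 (0.57) and Lpcat3 (0.52) were among the most alike. None of the 6 was among the most alike of another. Igf2r and Airn had r = 0.11, Mest and Copg2 0.42, and Igf2r and Copg2 -0.57.

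In the embryos, reads were assigned to the maternal or the paternal allele by sequence differences between the strains, which asks from which allele each gene was read when the oocyte carried both ADD mutations. Allelic counts summed to 7534598, 8547786 and 6998944 in embryos 1, 2 and 3, with 52.7%, 60.5% and 51.8% of them maternal. Values of wild-type embryos were not used here, so each share is set beside the median gene of the same chromosome in the same embryo and beside equal expression of the alleles, not beside a normal embryo. The paternal imprint gives a check of the assignment: Igf2, which is read from the paternal allele under a control region methylated in sperm, had maternal shares of 0.488%, 2.31% and 11.8%.

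The 3 embryo libraries stood apart from one another in tissue markers. The 8 markers of embryonic blood, heart and neural tissue, all with counts, summed to 5275 CPM of allelic counts in embryo 1 but to 90.9 in embryo 2 and 221 in embryo 3. The embryonic globin gene Hba-x held 1683, 5.15 and 1.71 CPM. The 8 markers of yolk sac and trophoblast summed to 102, 1913 and 783 CPM, with Apob at 57.1, 1320 and 471. Of these, Prl2c2, Tpbpa and Prl3b1 were listed at 0 throughout. The 8 markers of decidua and adult blood summed to 117, 78.0 and 37.9, with Hbb-bs and Hbb-bt listed at 0 throughout. Among them Des held 89.3, 21.1 and 14.6 CPM, while Prl8a2 went the other way at 0.398, 6.20 and 1.86. In embryo 2 the maternal share was 100% for Prl8a2 and Dcn, 80% for Pgr, and 61.1% to 65.0% for Des, Cryab and Hand2. Prl8a2 was 100% maternal in embryo 3 as well. Broadly used genes such as Arf1 and Mtor were also listed at 0 in these tables, so a listed 0 is no measure of absence. Embryo 2 was also unlike the others in allelic balance: the median gene of chromosome 6, which carries Mest and Copg2, was 70.5% maternal there, as was chromosome 9, against 55.4% to 58.8% on its other autosomes. In embryos 1 and 3 chromosome medians lay between 50.7% and 52.6%. The part of tissue make-up, maternal tissue included, in the values below was not tested, and embryo results are given per embryo for that reason.

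**Figure D3:**
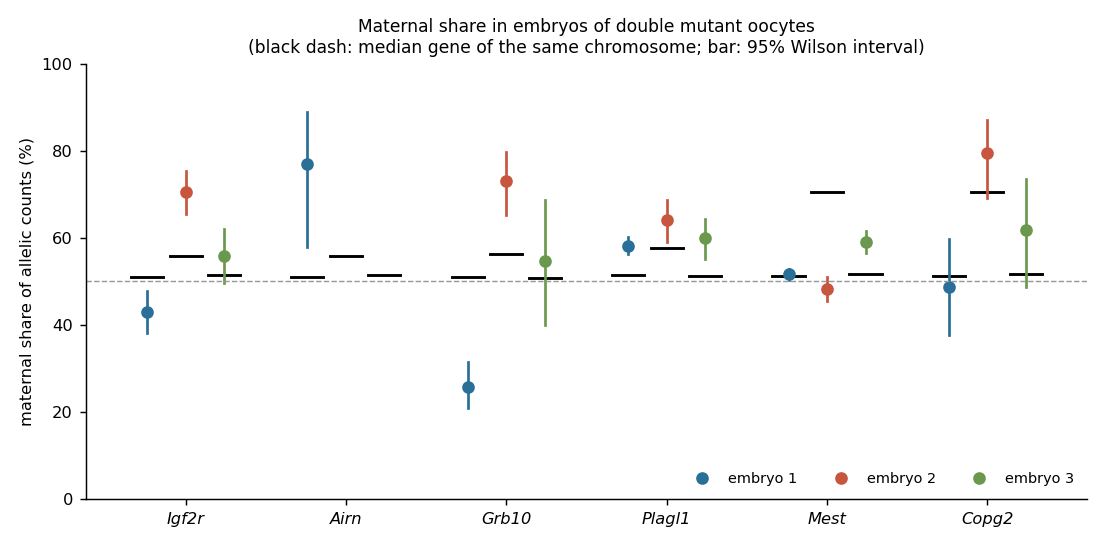
Maternal share of allelic counts of each gene in each embryo, with its 95% Wilson interval, which covers counting error only, and the median of the gene's chromosome as a black dash. Plagl1 lies above its dash in all 3 embryos, at 58.2%, 64.0% and 59.9%, while Grb10 runs from 25.8% to 73.0%. Airn is drawn only for embryo 1, where it had at least 10 allelic counts.

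Transcripts of both alleles were present for Mest and Plagl1 in every embryo, in large counts. Mest had 2887 maternal and 2707 paternal counts in embryo 1, 611 and 653 in embryo 2, and 809 and 560 in embryo 3. Its maternal share was 51.6% (95% Wilson interval 50.3% to 52.9%), 48.3% (45.6% to 51.1%) and 59.1% (56.5% to 61.7%), with a mean of 53.0% ± 5.51 (SD, n = 3). The alleles were thus near equal in embryos 1 and 2, with the maternal allele ahead in embryo 3.

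Set beside the chromosome 6 median, Mest was 0.281 percentage points above it in embryo 1, 22.1 points below it in embryo 2 (-22.1) and 7.48 points above it in embryo 3. In embryo 2 only 10 of the 500 chromosome 6 genes had a lower maternal share. Taking each embryo's chromosome median as equal expression moved the mean share of Mest to 45.3%, with an SD of 15.3.

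Plagl1 had 1456 maternal and 1047 paternal counts in embryo 1, 233 and 131 in embryo 2, and 260 and 174 in embryo 3. Its shares were 58.2% (56.2% to 60.1%), 64.0% (59.0% to 68.8%) and 59.9% (55.2% to 64.4%), a mean of 60.7% ± 3.00 (SD, n = 3). It lay 6.67, 6.46 and 8.60 points above the median of chromosome 10, and the maternal allele was ahead in 3 of 3 embryos. Even so, 73.3% to 84.3% of chromosome 10 genes had a lower share than Plagl1 in the same embryo. Between embryos, the SD of Plagl1 was below the median SD of 6.15 points over 10584 genes of any depth. That median was 9.79 points among the 3536 genes with a mean of 30 to 200 allelic counts. No set with counts as high as those of Plagl1 was compared, so its lower SD is not read as particular to it.

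Copg2 had 36 maternal and 38 paternal counts in embryo 1, 62 and 16 in embryo 2, and 34 and 21 in embryo 3, or shares of 48.6% (37.6% to 59.8%), 79.5% (69.2% to 87.0%) and 61.8% (48.6% to 73.5%). All 3 intervals of Copg2 held the chromosome 6 median of the same embryo. A departure from the chromosome median was thus not detectable at these counts.

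Igf2r was read from both alleles. It had 174 maternal and 231 paternal counts in embryo 1, 226 and 94 in embryo 2, and 132 and 104 in embryo 3. The shares were 43.0% (38.2% to 47.8%), 70.6% (65.4% to 75.3%) and 55.9% (49.6% to 62.1%), a mean of 56.5% ± 13.8 (SD, n = 3). Embryo 1 lay 7.92 points below the chromosome 17 median (-7.92) and embryo 2 lay 14.7 points above it, and the intervals of the 3 embryos did not overlap.

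Airn, the paternal antisense RNA of that locus, had few counts: 20 maternal and 6 paternal in embryo 1, 2 and 0 in embryo 2, and 4 and 0 in embryo 3. The maternal share in embryo 1 was 76.9% (57.9% to 89.0%). With 0 of 2 and 0 of 4 paternal counts, embryos 2 and 3 give no share. Airn was below the filter of the allelic test.

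Grb10 gave the widest spread between embryos. It had 70 maternal and 201 paternal counts in embryo 1, 103 and 38 in embryo 2, and 23 and 19 in embryo 3. Shares were 25.8% (21.0% to 31.4%), 73.0% (65.2% to 79.7%) and 54.8% (39.9% to 68.8%), so that the paternal allele led in embryo 1 and the maternal allele in embryo 2. The SD of 23.8 points exceeded the 90th percentile of 20.5 points among the 3536 genes with a mean of 30 to 200 allelic counts, whose median was 9.79 points. In embryo 1 only 0.799% of the 876 chromosome 11 genes had a lower maternal share.

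In the test of maternal against paternal counts with the embryo as a block (edgeR's quasi-likelihood test), 0 of the 5 genes tested passed adjusted p under 0.05, beside 0.569% of 10903 genes. At an unadjusted p under 0.05, for which no share of all genes is given, there was 1 of 5. That was Plagl1, with a log2 ratio of 0.62 (SE 0.13, adjusted p = 0.163). DESeq2 called it, at 0.62 with adjusted p = 0.0190, but called 730 of the 10903 genes where edgeR called 62. The log2 ratio was 0.39 (SE 0.37) for Igf2r, 0.03 (SE 0.64) for Grb10, 0.18 (SE 0.16) for Mest and 0.83 (SE 0.52) for Copg2, with adjusted p from 0.439 to 0.981. Igf2, read almost wholly from the paternal allele, also missed the limit of edgeR's test, at -5.30 with adjusted p = 0.163. A gene that did not pass is therefore not shown to have balanced alleles. The median over all genes tested was 0.24, but 0.09 without embryo 2 and -0.06 with each allele scaled to its own total. Without embryo 2 the ratio of Igf2r was -0.04 and that of Grb10 -0.75, and without embryo 1 that of Grb10 was 0.90, so their direction rested on single embryos. Copg2 kept its sign but was 0.29 without embryo 2 and 1.32 without embryo 1.

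The amount of transcript also differed between embryos. Plagl1 held 332, 42.6 and 62.0 CPM of allelic counts in embryos 1, 2 and 3, and Mest held 742, 148 and 196. Grb10 held 36.0, 16.5 and 6.001, Igf2r 53.8, 37.4 and 33.7, Airn 3.45, 0.234 and 0.572, and Copg2 9.82, 9.13 and 7.86. Embryo 1 thus exceeded the mean of the other two 6.35-fold for Plagl1, 4.32-fold for Mest and 3.20-fold for Grb10, where 3.25% of all genes tested exceeded 3-fold, and 1.51-fold for Igf2r and 1.16-fold for Copg2. The summed embryonic tissue markers were highest in the same library.

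**Figure D4:**
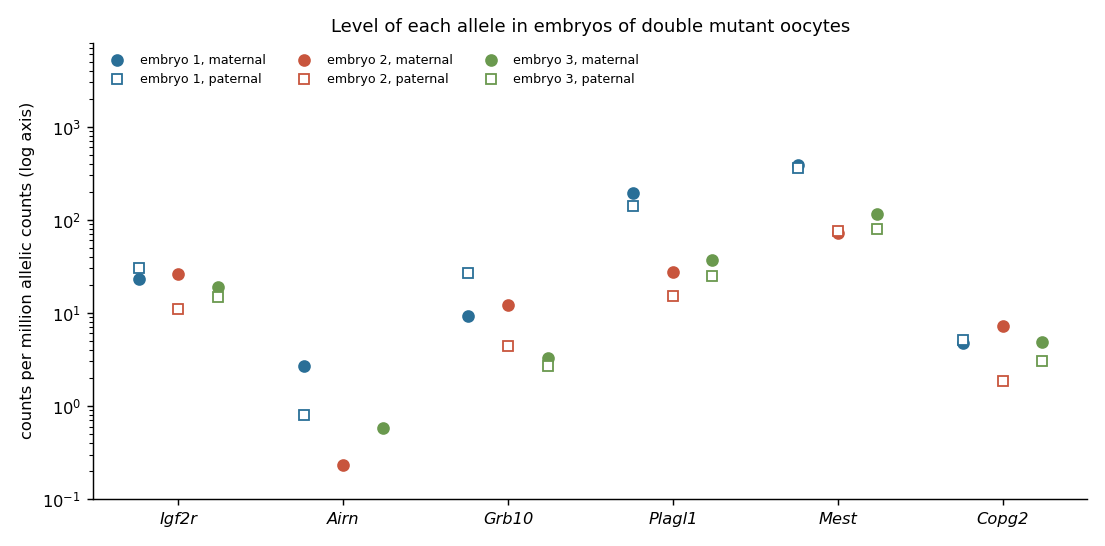
Counts of each allele as CPM of the embryo's allelic counts, on a log axis, with filled circles for the maternal and open squares for the paternal allele (alleles with 0 counts are not drawn). Both alleles of Plagl1 and Mest stand several-fold higher in embryo 1, at 193 and 139 CPM for Plagl1 and 383 and 359 CPM for Mest, than in embryos 2 and 3.

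Among the 42 further imprinted genes of the list, 24 had at least 10 allelic counts in all 3 embryos, and their median mean share was 52.3% maternal. Their mean shares ran from 22.4% for Ndn to 82.1% for Osbpl5. The list was not split by the allele from which each gene is normally read, and wild-type embryos were not used. The median is therefore no measure of balanced alleles. In the allelic test, which called 0.569% of all 10903 genes, 0 of 25 passed. At that share, the counts of 0 here and below are not read as a result about the lists. The most abundant were the zinc finger gene Peg3, at 50.9%, 48.5% and 48.1%, Peg10, at 51.2%, 9.97% and 50.1%, and Gnas, which encodes the stimulatory G protein alpha subunit, at 48.1%, 57.8% and 49.6%. Of IGF signalling genes, Igf2 included, 0 of 28 passed. Of mannose 6-phosphate sorting 0 of 8 passed, of COPI coat genes 0 of 7, and of the neighbours within 200 kb 1 of 15. That gene was Wtap near Igf2r, with 75.1%, 76.9% and 80.6% maternal and a log2 ratio of 1.79 (adjusted p = 0.0308). Without embryo 3, 0 of 11295 genes tested passed, so the call of Wtap was not kept.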

How the data were processed

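RNA-seq of 52 single oocytes and 3 embryos was used. For oocytes the authors deposited raw counts per gene, made per the labels and the methods with STAR on mm10 and a read counter, with gene coordinates and lengths. For embryos the authors deposited raw counts assigned to the maternal or paternal allele with HTSeq, and 8 columns of these tables that match no sample were not used. Members and gene lists were chosen with earlier results of these data known.

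Counts were tested with edgeR 4.0.16 (quasi-likelihood, trimmed mean of M-values, filterByExpr with a minimum count of 10): the 42 FGOs in 1 fit, with all 52 oocytes for MII, and alleles with the embryo as block and the embryo total as library size of both. P-values were Benjamini-Hochberg adjusted over all genes tested, and calls used 0.05 and 2-fold, or 0.05 alone. The approximate 95% intervals of log2 differences are normal intervals from the standard error. CPM used effective library sizes, RPKM the gene lengths of the files, and shares need 10 allelic counts, with 95% Wilson intervals for counting error only. Counts of any pair of libraries within a group gave a chi-square of at least 5.39 per degree of freedom, so no library was taken as deposited in duplicate. Replicate numbers were not used to pair the FGOs in the main fit. Correlations of deviations between libraries of the same number passed 0.1 in 0 to 4 of 8 pairs per comparison. Libraries of unlike number were not compared, so this does not settle whether the numbers pair. Both alleles come from 1 embryo library and were paired. Classes of mapped reads (80%) were taken from the study's library summary. Named genes were the 6 members, the 3 genes most alike to each over the FGOs with a mean of at least 1 CPM (1 of these is not reported here), neighbours within 200 kb past a test, and list genes past a test or, where none passed, the 3 most abundant. Of 24421 genes with embryo counts, 23322 had a position. All 6 members had a promoter in the RefSeq table. Alternatives were DESeq2 1.42.0, edgeR's exact test, other scaling and filters, and the replicate block (replicates 1 to 8 only). Others were classes of mapped reads (both groups restricted to 1 class was added after seeing the data) and each library left out. Scripts were tested on simulated data. The counter's settings are not given in the sources used here.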

Additional observations from a re-analysis of the deposited data

How the results depend on the processing

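Under all oocyte settings tried 0 of the 6 genes passed the 2-fold rule, and all 30 mean CPM values moved by less than 1 SD on plain library totals. Counts at adjusted p under 0.05 alone shifted by 1 or 2 genes. The replicate block used replicates 1 to 8 only, which in the wild type are the FGOs under 80% mapped reads. The block and that class setting thus share their wild-type FGOs and are not separate checks. For Dnmt3L ADD/ADD against wild type (1 gene) the count was 0 without a count filter. It was 2 with the replicate block or with wild-type FGOs under 80% mapped reads. For Dnmt3a ADD/ADD (1 gene) it was 3 with the replicate block and 2 with either class of wild-type FGOs. For the double mutant (2 genes) it was 3 with wild-type FGOs at 80% or more, 1 with only the groups compared in the fit or without a filter, and 0 with the replicate block, with wild-type FGOs under 80%, with the class as covariate or with both groups under 80%. For the double mutant against Dnmt3a ADD/ADD (1 gene) it was 0 without a filter, with the class as covariate or with both groups under 80%. Against Dnmt3L ADD/ADD (0 genes) it was 1 with the exact test or only the groups compared, and for MII oocytes (2 genes) it was 1 with both groups under 80% and 3 with the replicate block. Leaving out each library gave 0 to 1, 1 to 3, 0 to 2, 0 to 2 and 0 to 1 in the first 5 of these comparisons in that order. For MII oocytes it gave 2 to 3. In embryos, DESeq2 called 1 gene in place of 0, and 730 in place of 62 of all 10903 genes, and centring on the chromosome moved the mean maternal share of Plagl1 to 57.4% and of Mest to 45.3%.

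Values near 0 changed sign under some settings, and the cause was not tested. In Dnmt3L ADD/ADD against wild type, Airn was -0.37, Grb10 -0.0090 and Copg2 -0.0044 with the replicate block, and -0.24, -0.0094 and -0.0085 against wild-type FGOs under 80%. Plagl1 there was 0.085 against wild-type FGOs at 80% or more, 0.023 with the class as covariate and 0.082 with both groups at 80% or more. In the double mutant against wild type, Igf2r was 0.010 and Plagl1 -0.18 with the replicate block, 0.0081 and -0.19 against wild-type FGOs under 80%, and 0.020 and -0.13 with the class as covariate. Plagl1 was -0.20 with both groups under 80%, and Airn was 0.16 against wild-type FGOs at 80% or more, where Airn in MII oocytes was 0.029. Airn in the double mutant against Dnmt3a ADD/ADD was -0.035 with the class as covariate and -0.029 with both groups under 80%, where Grb10 in Dnmt3a ADD/ADD against wild type was -0.012. In embryos, Grb10 was -0.27 and Mest -0.11 with each allele's own total, -0.22 and -0.066 with scaling factors, and Grb10 was -0.45 without the replicate block of embryos. With 1 library left out, Airn ranged from -0.17 to 0.10 in Dnmt3L ADD/ADD, from -0.22 to 0.013 in the double mutant and from -0.21 to 0.090 between these, where Igf2r ranged from -0.016 to 0.052. Grb10 in Dnmt3L ADD/ADD ranged from -0.016 to 0.11. With 1 embryo left out, Grb10 ranged from -0.75 to 0.90, Igf2r from -0.038 to 0.81 and Mest from -0.0011 to 0.31.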
